A study of Drosophila melanogaster with 7 samples.

Results

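The transcripts described here are from 10 heat shock and co-chaperone genes of the adult Drosophila midgut: the Hsp70 genes Hsp70Aa, Hsp70Ab and Hsp68, the Hsp90 gene Hsp83, the small heat shock genes Hsp22, Hsp23, Hsp26 and Hsp27, and the co-chaperone genes stv (starvin) and DnaJ-1. They were chosen by symbol, and all 10 were among the 10902 genes of the count table and among the 9076 genes that passed the filter on low counts. RNA was sequenced from midguts dissected without crop, Malpighian tubules and hindgut, in flies crossed at 18 °C and held as adults for 7 days at 29 °C. All 3 groups carried esgts, a temperature-sensitive driver active in intestinal stem cells and their daughters. The control group (esgts> w1118) had 3 libraries. The group labelled esgts> Shn-RNAi, where that driver runs RNA interference against schnurri (shn, a nuclear partner of the Smad factors of BMP signalling), had 2. The group labelled esgts> Shn-RNAi,PucE69/+, with 1 mutant copy of puckered (puc, which switches off JNK) added, had 2 and is called Shn-RNAi puc below. The series title calls the second group tumor and the third severe tumor. No group kept at a lower adult temperature was analysed here, so these levels are those at 29 °C in every group. The labels do not say whether a library came from separate or pooled flies, so p-values measure only the spread between these libraries.

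Heat shock proteins are chaperones: they hold, refold or hand over unfolded proteins. In Drosophila the transcription factor Hsf switches on the Hsp70 genes, Hsp68 and the small heat shock genes from a low level when proteins unfold, as after heat, wounding or oxidative stress. Hsp83 and DnaJ-1 are made in unstressed cells as well and rise further under stress. Hsp70 proteins work in cycles with J-domain proteins such as DnaJ-1, which deliver clients, and with BAG-domain proteins such as Starvin, which release the nucleotide.

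Total counts ran from 11552527 to 18490676 per library, and the 10 genes together held 0.055% to 0.221% of them. The detection floors given below cover counting error only. Transcripts of shn stood at 42.4 to 47.4 CPM (counts scaled to library size with TMM factors) in control, 54.1 and 68.6 in Shn-RNAi and 66.5 and 69.7 in Shn-RNAi puc, which is higher than control in Shn-RNAi puc (log2 0.63, edgeR adjusted p = 0.031). The knockdown was thus not seen in whole-gut counts, and each group is named by its label. The enterocyte markers fixed for the tissue check were all present, with a summed level of 33410 to 62577 CPM. Of the 4 hemocyte genes, Hml, NimC1 and eater were at or under 4.80 CPM, and Ppn ran from 51.1 to 71.0 CPM in control and from 88.0 to 94.6 CPM in the RNAi libraries. Hml was 6.09-fold higher in Shn-RNAi puc than in control (edgeR adjusted p = 0.0061), and the part of these genes in the results below was not tested. The germline list summed to at most 2.08 CPM over its 4 genes analysed here. Malpighian tubule markers summed to 56.2, 48.9 and 29.5 CPM among controls. They came to 90.4 and 43.1 CPM in Shn-RNAi and 62.1 and 35.2 CPM in Shn-RNAi puc, and their part below was not tested.

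The genes lie on chromosome 3. Hsp70Aa (3R:11954163-11956544, minus strand) and Hsp70Ab (3R:11958535-11960909, plus strand) point away from each other with 1990 bases between them, and Hsp68 is at 3R:24055080-24057310 (minus strand). Hsp22 (3L:9372931-9374964, plus), Hsp26 (3L:9376418-9377427, minus), Hsp23 (3L:9381882-9382765, plus) and Hsp27 (3L:9384063-9385694, plus) sit, with neighbours, within 14184 bases. Hsp83 (3L:3192969-3197059, plus), DnaJ-1 (3L:5750029-5752189, minus) and stv (3L:13477541-13483515, plus) stand alone. These positions are from the Ensembl annotation of BDGP6.54. In that annotation 6 of the genes (both Hsp70 genes, Hsp68, Hsp23, Hsp26 and Hsp27) have single-exon transcripts only. The gene CG4456 covers all of Hsp22 on the same strand. Hsp22 was assigned 45 to 1482 counts per library and CG4456 0 to 5, and because of the overlap that split is uncertain.

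Control library 2 and Shn-RNAi library 2 stood apart in these genes. In both, Hsp70Aa, Hsp68 and the 4 small heat shock genes were over 4-fold higher than in the other libraries of the same label, while Hsp83, stv and DnaJ-1 were not. Hsp70Ab was far higher in control library 2 and 2.42-fold higher in Shn-RNAi library 2. Counts of calls are therefore also given without those libraries. Because the libraries were singled out by these same genes, the values without them are a description and support no difference between groups.

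**Figure D1:**
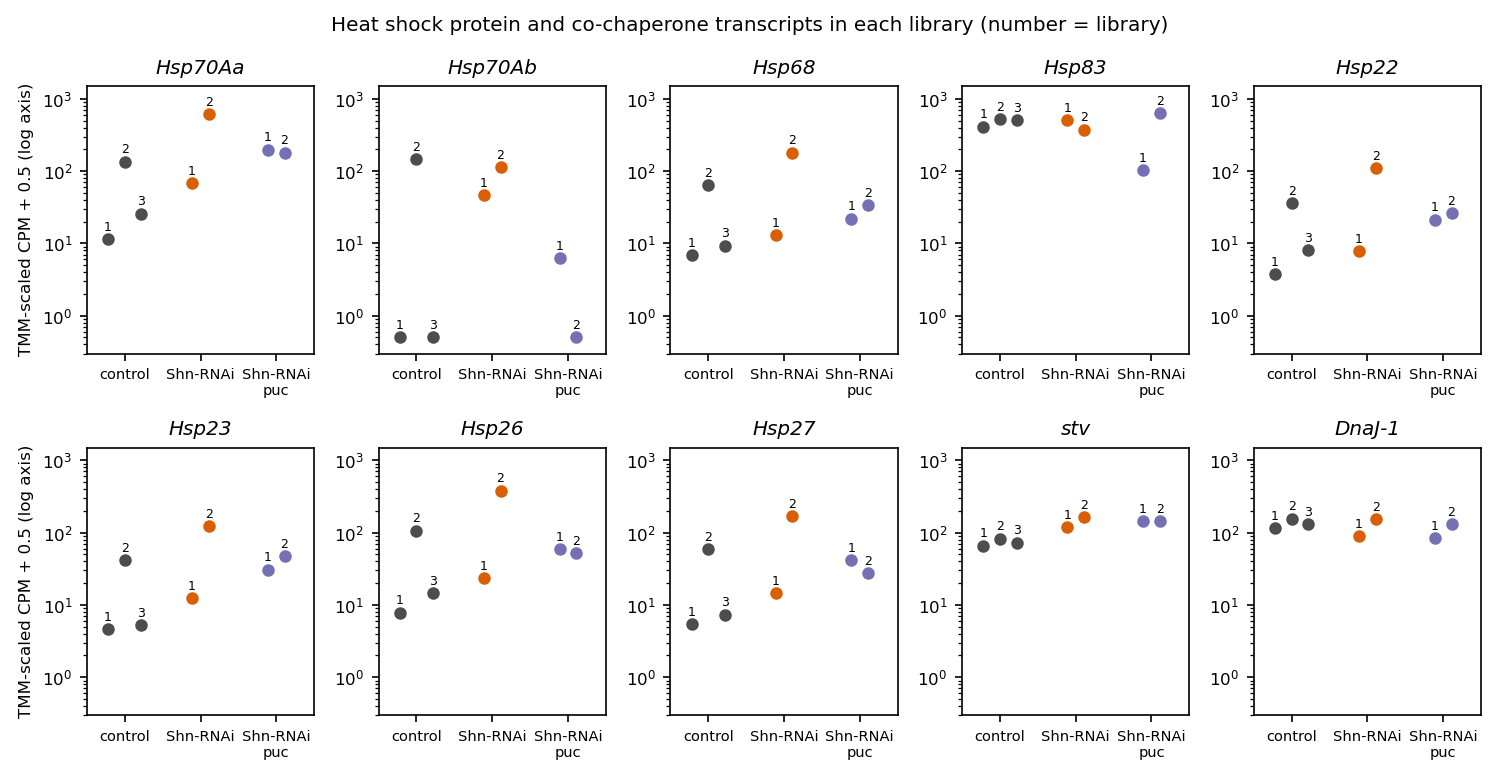
Each panel plots 1 gene, with TMM-scaled CPM plus 0.5 on a log axis for the 7 libraries, coloured by group and numbered within it. Control library 2 and Shn-RNAi library 2 are high for Hsp70Aa, Hsp68 and the small heat shock genes, stv is higher in all 4 RNAi libraries, and Hsp83 is low in Shn-RNAi puc library 1.

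Hsp70Aa, an inducible cytosolic Hsp70, was at 11.0, 134 and 25.2 CPM among the controls, 68.0 and 617 CPM in Shn-RNAi, and 197 and 180 CPM in Shn-RNAi puc. Both Shn-RNAi puc libraries were above all 3 controls, while the Shn-RNAi and control libraries overlapped. Group means were 56.8 ± 67.5 (SD, n = 3), 342 ± 388 (n = 2) and 189 ± 12.1 CPM (n = 2). The log2 difference from control was 2.58 (SE 1.07, edgeR adjusted p = 0.17) in Shn-RNAi and 1.72 (SE 1.06, adjusted p = 0.32) in Shn-RNAi puc, and neither passed. Leaving out control library 2 made the first 4.22, which then passed (edgeR adjusted p = 0.045), and the second 3.36 (adjusted p = 0.058). Leaving out Shn-RNAi library 2 made the first 0.26 (adjusted p = 0.90), and leaving out both made it 1.92 (adjusted p = 0.027).

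Hsp70Ab, its inverted neighbour, had 0 counts in control libraries 1 and 3 and in Shn-RNAi puc library 2, where 3 counts would be 0.215, 0.239 and 0.212 CPM. It stood at 145 CPM in control library 2, 45.8 and 112 CPM in Shn-RNAi, and 5.72 CPM in Shn-RNAi puc library 1. Group means were 48.4 ± 83.8 (SD, n = 3), 78.8 ± 46.7 (n = 2) and 2.86 ± 4.04 CPM (n = 2), with no difference past the threshold (edgeR adjusted p = 0.86, 0.32 and 0.84). Counts of 0 beside abundant Hsp70Aa need not mean an absent transcript, because the 6 Hsp70 genes are near-identical and may share reads. Of the reads given to Hsp70Aa or Hsp70Ab, the share given to Hsp70Ab was 0%, 51.9% and 0% in control, 40.3% and 15.3% in Shn-RNAi, and 2.82% and 0% in Shn-RNAi puc.

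The 6 Hsp70 genes summed, which avoids that split, came to 95.6, 509 and 59.6 CPM among controls, 256 and 1419 CPM in Shn-RNAi, and 340 and 405 CPM in Shn-RNAi puc. In this sum control library 2 lay above both Shn-RNAi puc libraries and Shn-RNAi library 1. Tested as 1 row, the sum differed from control by 1.92 (SE 0.93, edgeR adjusted p = 0.23) in Shn-RNAi and 0.75 (SE 0.92, adjusted p = 0.64) in Shn-RNAi puc on the log2 scale. Most of the sum was assigned to Hsp70Aa and Hsp70Bb, the latter with 418 to 7646 counts per library.

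**Figure D2:**
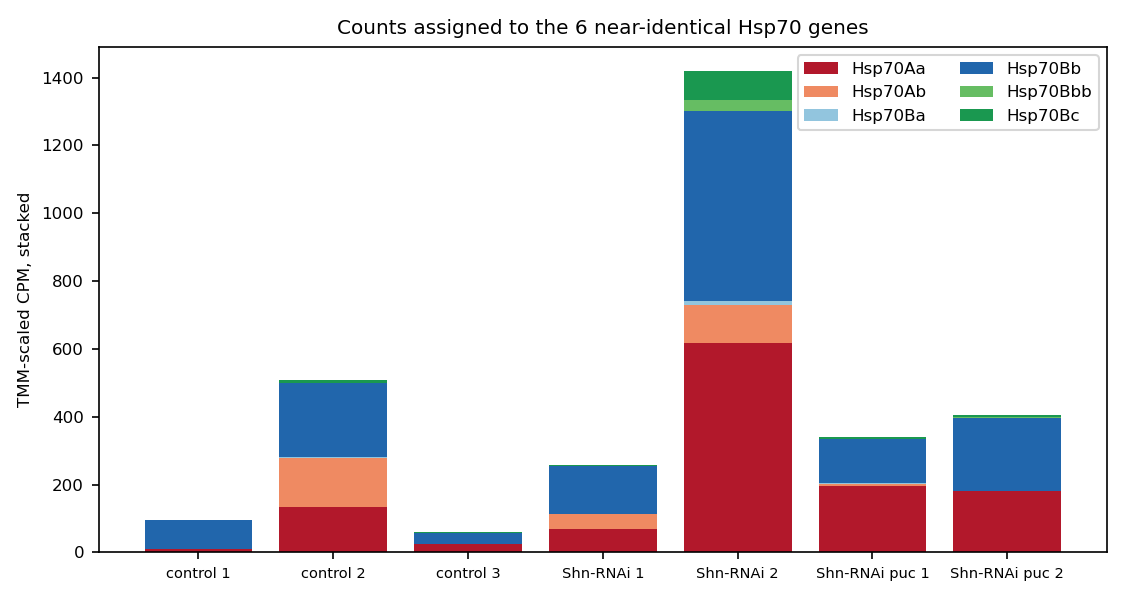
Bars stack the TMM-scaled CPM assigned to each of the 6 near-identical Hsp70 genes, 1 bar per library. The sum reaches 1419 CPM in Shn-RNAi library 2, against 509 CPM in control library 2, and the part assigned to Hsp70Ab runs from none to more than that of Hsp70Aa.

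Hsp68, a stress-inducible Hsp70 relative at another locus, was at 6.30, 63.7 and 8.84 CPM among controls, 12.6 and 179 CPM in Shn-RNAi, and 21.4 and 33.0 CPM in Shn-RNAi puc. Its groups overlapped in every comparison. The log2 difference from control was 1.85 (SE 1.13, edgeR adjusted p = 0.35) in Shn-RNAi and 0.04 (SE 1.16, adjusted p = 0.99) in Shn-RNAi puc. Without Shn-RNAi library 2 the first became -1.07, and without control library 2 it was 3.64.

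The small heat shock proteins bind unfolding proteins without ATP and keep them from clumping. Hsp26 was at 7.31, 106 and 14.0 CPM among controls, 22.8 and 380 CPM in Shn-RNAi, and 58.9 and 51.4 CPM in Shn-RNAi puc. Hsp27, found largely in the nucleus, was at 4.94, 58.4 and 6.85 CPM among controls, 13.9 and 169 CPM in Shn-RNAi, and 41.4 and 27.1 CPM in Shn-RNAi puc. The order of the libraries was the same for both: Shn-RNAi library 2, control library 2, the Shn-RNAi puc libraries, Shn-RNAi library 1, then control libraries 3 and 1.

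Hsp23, a cytosolic member, was at 4.08, 40.7 and 4.78 CPM among controls, 11.9 and 123 CPM in Shn-RNAi, and 30.3 and 46.3 CPM in Shn-RNAi puc. Hsp22, the mitochondrial member, was at 3.22, 35.2 and 7.49 CPM among controls, 7.23 and 109 CPM in Shn-RNAi, and 20.9 and 25.6 CPM in Shn-RNAi puc. In all 4 genes Shn-RNAi library 2 was the highest and control library 1 the lowest, and the control libraries overlapped both other groups. Differences from control in Shn-RNAi were 1.89 (Hsp22), 2.00 (Hsp23), 2.24 (Hsp26) and 1.95 (Hsp27) on the log2 scale, with SE from 1.09 to 1.22 and edgeR adjusted p from 0.29 to 0.33. In Shn-RNAi puc they were 0.58, 1.19, 0.37 and 0.53, with edgeR adjusted p from 0.52 to 0.88. Leaving out Shn-RNAi library 2 turned the first set to -1.10, -0.50, -0.90 and -0.76, and leaving out control library 2 raised it to 3.41, 3.90, 4.21 and 3.93. Leaving out control library 2 raised the Shn-RNAi puc set to 2.10, 3.09, 2.35 and 2.51, with edgeR adjusted p from 0.078 to 0.24.

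The 4 genes share their stretch of 3L with Hsp67Bc, Hsp67Ba and CG4461, further small heat shock genes, which were near the limit of detection. Hsp67Bc had 7, 33 and 2 counts in control, 8 and 65 in Shn-RNAi, and 15 and 7 in Shn-RNAi puc, so the same 2 libraries held its highest counts. CG4461 had 3 to 8 counts and Hsp67Ba 2 to 10 in all libraries, and both were removed by the low-count filter.

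Hsp83, the cytosolic Hsp90 that matures kinases and receptors and binds Hsf, followed another pattern. It was at 410, 521 and 500 CPM among controls, 509 and 373 CPM in Shn-RNAi, and 103 and 626 CPM in Shn-RNAi puc. Library 1 of Shn-RNAi puc was the lowest of all 7 and library 2 the highest, a 6.07-fold gap within 1 group on the log2(CPM + 0.5) scale. That difference between libraries ranked 11th from the top among the 9076 tested genes. Group means were 477 ± 58.9 (SD, n = 3), 441 ± 95.6 (n = 2) and 364 ± 370 CPM (n = 2), and no comparison passed (edgeR adjusted p = 0.93, 0.72 and 0.98). When library 2 of Shn-RNAi puc was left out, that group differed from control by -2.21 on the log2 scale (edgeR adjusted p = 0.037), and when library 1 was left out by 0.39 (adjusted p = 0.42). Of the 17 other co-chaperones, 2 picked after their values were seen were lower in library 1 than in library 2: Stip1, which links Hsp70 to Hsp90, was at 49.0 against 92.9 CPM, and CG1416 at 36.7 against 60.3 CPM. Some others were also lower in library 1, such as shu, HIP and CG10973. Still others were level or the other way round, such as unc-45 at 38.7 against 27.7 CPM and p23 at 151 against 143 CPM.

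The Starvin gene stv, a BAG-domain co-chaperone of Hsp70 that in flies maintains muscle by clearing damaged filamin, was the only gene of the 10 that passed a test between groups. It was at 65.3, 81.5 and 71.9 CPM among controls, 119 and 164 CPM in Shn-RNAi, and 143 and 142 CPM in Shn-RNAi puc. All 4 RNAi libraries lay above all 3 controls. Group means were 72.9 ± 8.17 (SD, n = 3), 142 ± 31.9 (n = 2) and 143 ± 0.966 CPM (n = 2). The transcript rose 1.94-fold in Shn-RNAi (log2 0.96, SE 0.18, edgeR adjusted p = 0.018) and 1.96-fold in Shn-RNAi puc (0.97, SE 0.18, adjusted p = 0.014), and the RNAi groups differed by 0.01 (SE 0.20, adjusted p = 1.00).

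Both calls of stv rested on a narrow margin. With 1 library left out at a time the first was kept in 2 of 7 refits, and the edgeR adjusted p rose to 0.085 when control library 1 was dropped, to 0.060 for control library 3, to 0.056 for Shn-RNAi library 2, and to 0.053 for either Shn-RNAi puc library. The second was kept in 4 of 7, and was lost without control library 1 (edgeR adjusted p = 0.070) or Shn-RNAi puc library 1 (0.083) or 2 (0.11). Without control library 2 and Shn-RNAi library 2 together the log2 differences were 0.80 (edgeR adjusted p = 0.027) and 1.03 (0.0049). Visceral muscle markers summed to 3576 to 3793 CPM in control and to a lower 1837 to 2495 CPM in the RNAi libraries, and their part in the result was not tested. In bulk RNA fewer cells of a type and less RNA per cell cannot be told apart.

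DnaJ-1, the Hsp40 partner of Hsp70, was at 114, 155 and 130 CPM among controls, 88.7 and 152 CPM in Shn-RNAi, and 83.2 and 131 CPM in Shn-RNAi puc. All 3 groups overlapped. The log2 difference from control was -0.14 (SE 0.29, edgeR adjusted p = 0.80) in Shn-RNAi and -0.31 (SE 0.29, adjusted p = 0.53) in Shn-RNAi puc.

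The comparison of Shn-RNAi with control asked which transcripts differ in the midgut called tumor. Of the 10 genes 1 was higher (stv) and 0 were lower by edgeR, where 6.06% of all tested genes were higher and 3.56% lower (9.62% in either direction). None of the 10 was lower at an unadjusted p under 0.05, nor by DESeq2 or limma-voom. At an unadjusted p under 0.05 in edgeR 2 of the 10 were higher, stv and Hsp70Aa. The share of all tested genes at that unadjusted threshold is not given here, so this count cannot be judged against it. The median log2 difference of the 10 was 1.87, against 0.03 over all tested genes. That median became 3.77 when control library 2 was dropped, -0.54 when Shn-RNAi library 2 was dropped, and 0.96 when both were, so its size and sign depended on which of them were kept. Only stv had libraries that did not overlap, against 22.1% of tested genes that were higher without overlap and 21.2% that were lower. In the fit without control library 2 and Shn-RNAi library 2, in which the lone Shn-RNAi library is assumed to vary like the other groups, 5 of the 10 were higher (Hsp70Aa, Hsp70Ab, Hsp23, Hsp27 and stv) beside 9.87% of tested genes, and 0 were lower beside 6.37%. Both remaining controls had 0 counts of Hsp70Ab. Because the 2 libraries left out had been singled out by these same genes, the calls of that fit support no difference between groups.

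The comparison of Shn-RNAi puc with control asked the same of the midgut called severe tumor, and shares its control libraries with the first. Again 1 of the 10 genes was higher (stv) and 0 lower by edgeR, where 8.76% of tested genes were higher and 6.25% lower (15% in either direction). The unadjusted p, DESeq2 and limma-voom gave no lower gene either. Libraries did not overlap for stv and Hsp70Aa, against 28.5% of tested genes that were higher without overlap and 26.4% that were lower. The median log2 difference of the 10 was 0.45, against 0.02 over all tested genes, and 2.22 when control library 2 was dropped. Without control library 2 and Shn-RNAi library 2, 7 of the 10 were higher and 0 lower, where 11.7% of tested genes were higher and 11.3% lower. These were stv, Hsp70Aa (log2 3.35, SE 0.36), Hsp23 (3.08, SE 0.25), Hsp27 (2.51, SE 0.26), Hsp26 (2.35, SE 0.28), Hsp22 (2.10, SE 0.35) and Hsp68 (1.82, SE 0.27). The fold of Hsp23 was then 8.47, against 2.28 with all libraries. The 2 libraries left out had been singled out by these same genes. The values of that fit are therefore a description and support no difference between groups.

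The third comparison, Shn-RNAi puc with Shn-RNAi, asked what the puc mutation adds. By edgeR 0 of the 10 genes were higher and 0 lower, where 0.0881% of tested genes were higher and 0.0551% lower. None of the 10 had an unadjusted p under 0.05, and DESeq2 and limma-voom called none. The median log2 difference of the 10 genes was -1.09 with all libraries, and 1.19 once Shn-RNAi library 2 was dropped, so its sign rested on that library. Dropping control library 2 alone left it at -1.09. Hsp70Ab was lower without overlap between libraries, as were 11.9% of tested genes, while 16.1% were higher without overlap. Without those 2 libraries 0 of the 10 were called, beside 0.163% of tested genes higher and 0.13% lower.

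**Figure D3:**
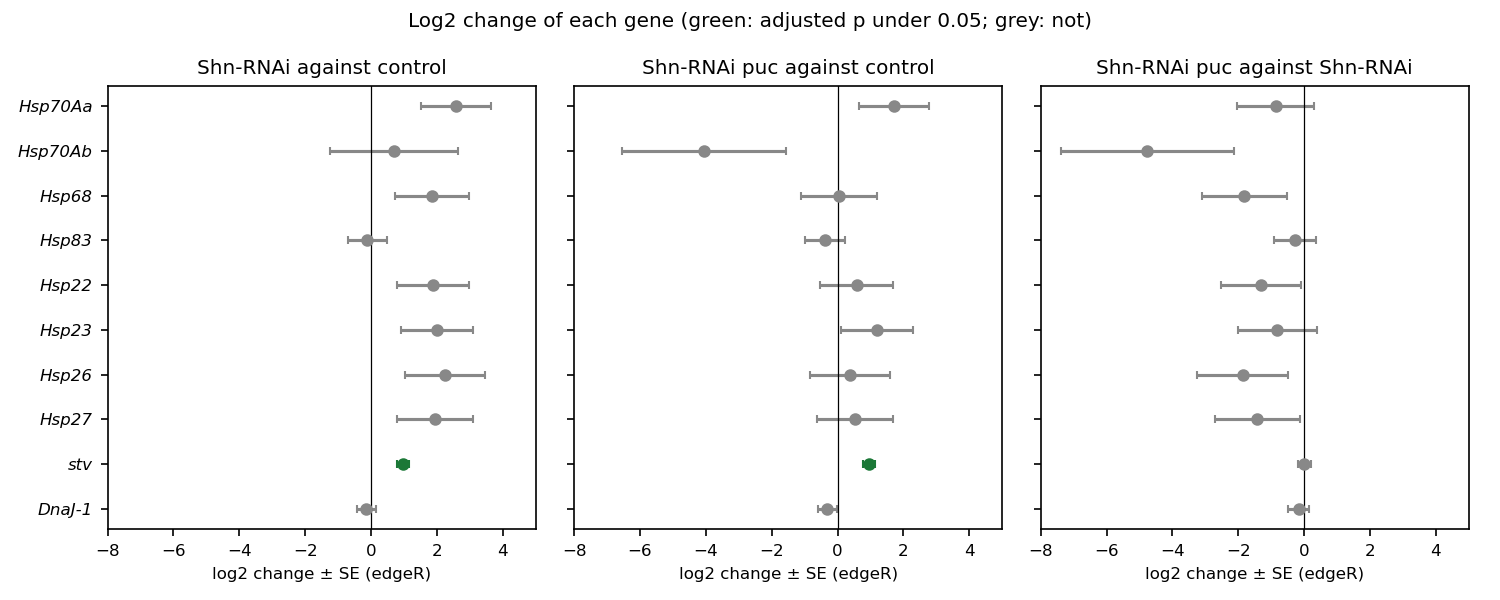
Points are edgeR log2 changes of the 10 genes with SE bars in the 3 comparisons, green where the adjusted p was under 0.05. The changes of stv from control are 0.96 and 0.97 with short bars, while those of the Hsp70 genes, Hsp68 and the small heat shock genes have SE of 1.06 or more.

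The biological coefficient of variation fitted by edgeR was 76.4% to 86.0% for Hsp70Aa, Hsp68 and the small heat shock genes, 200.2% for Hsp70Ab and 45.1% for Hsp83, against a trend of 18.3% to 21.5% at their levels. It was 17.1% for stv and 23.9% for DnaJ-1. Control library 2 exceeded the mean of control libraries 1 and 3 by 6.56-fold (Hsp22) to 9.97-fold (Hsp26) in the Hsp70Aa, Hsp68 and small heat shock transcripts, on the log2(CPM + 0.5) scale. Shn-RNAi library 2 exceeded library 1 by 9.01-fold (Hsp70Aa) to 16.4-fold (Hsp26) in the same transcripts. The 2 Shn-RNAi puc libraries differed in them by at most 1.53-fold, in Hsp68. The corresponding differences in stv were 1.19-fold, 1.38-fold and 1.01-fold.

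Of all 9076 tested genes 49 were over 4-fold higher in control library 2 than in the mean of the other controls, and 61 were over 4-fold higher in Shn-RNAi library 2 than in library 1. Both sets held 12 genes, which is 24.5% of the first and 19.7% of the second. They included 6 of the 10 genes (Hsp70Aa, Hsp68, Hsp22, Hsp23, Hsp26 and Hsp27) and 2 other Hsp70 genes, Hsp70Ba and Hsp70Bc. The 2 libraries had been singled out by those 6 genes at the same 4-fold cut, so the presence of the 6 was fixed in advance and is a description only. The other 4, named after their values were seen, were CR43482, CG14499, att-ORFB and lectin-37Da. CR43482, annotated as a pseudogene that starts 417 bases past the end of Hsp27, reached 18.8 CPM in Shn-RNAi library 2 and 3.65 in control library 2, against at most 1.10 CPM elsewhere. CG14499 and lectin-37Da were low in control library 3 rather than high in library 2, with 51.3 and 78.9 CPM in control library 1.

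Other features of those 2 libraries are given beside this spread, and their part in it was not tested. Control library 2 had the most counts of the 7, and Shn-RNAi library 2 fewer than library 1. Genes with counts numbered 10601 in control library 2, against 10048 to 10352 in the other libraries (10290 in Shn-RNAi library 2). Tested genes held 99.77% of the counts in control library 2, against 99.96% to 99.98% in the others. Genes were put in 4 equal bins of transcript length, and the median deviation of the longest bin minus that of the shortest was -0.0012 on the log2 scale in control library 2, against -0.31 and -0.39 in the other controls, and -0.25 in Shn-RNAi library 2, against 0.59 in library 1. Fat body markers, of which 4 of the 6 listed had counts here, summed to 848 CPM in control library 2, the highest of all. They came to 339 CPM in Shn-RNAi library 2, the lowest. Of these sums Yp1 alone held 442 and 190 CPM. The enterocyte sum was 41217 CPM in control library 2 and 62577 CPM in Shn-RNAi library 2, but most of it was the protease gene Jon65Aiii (36873 and 43351 CPM). The enterocyte factor nub was highest among the controls in library 2 (95.1 CPM) and lower in Shn-RNAi library 2 (133 CPM) than in library 1 (160 CPM). Hsf itself was at 27.3 CPM in control library 2, against 29.3 and 31.9 CPM, and at 19.2 CPM in Shn-RNAi library 2, against 26.3 CPM.

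**Figure D4:**
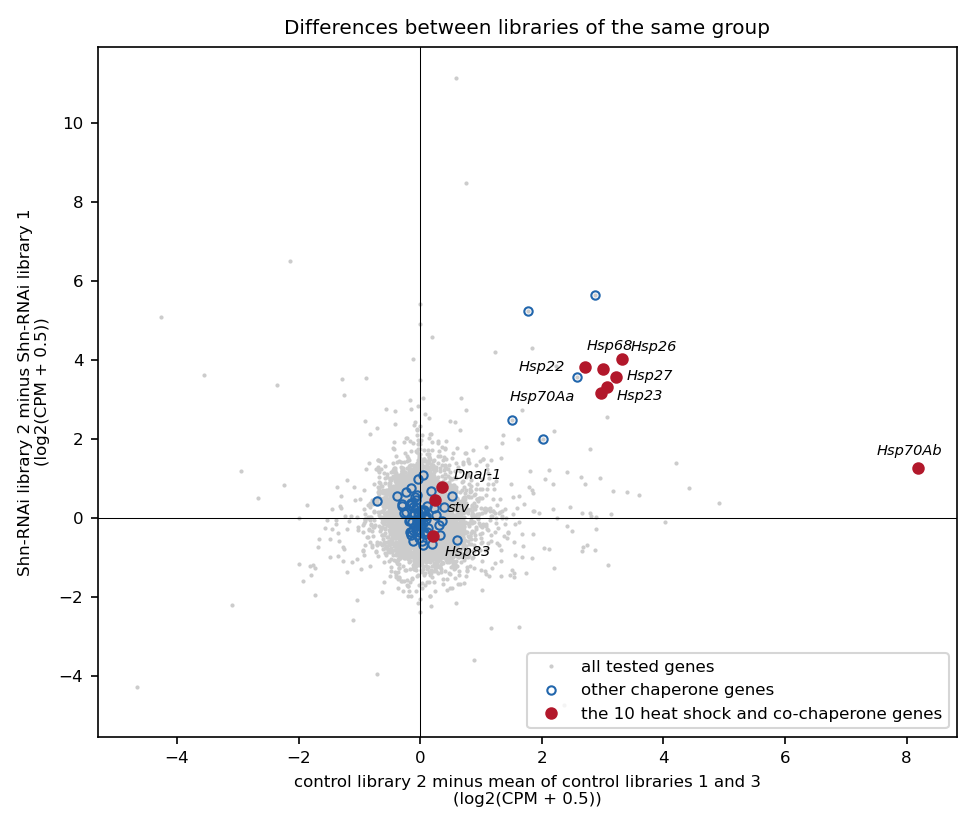
Each point is a tested gene, with the log2(CPM + 0.5) difference of control library 2 from the mean of control libraries 1 and 3 on the x axis and of Shn-RNAi library 2 from library 1 on the y axis. The Hsp70Aa, Hsp68 and small heat shock points lie between 2.71 and 3.32 on the first axis and between 3.17 and 4.03 on the second, while Hsp83, stv and DnaJ-1 lie near the origin with most other chaperone genes.

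Likeness of pattern was described by Pearson's r of log2(CPM + 0.5) over the 7 libraries, which share depth, scaling and group structure, so r is given with no p. For Hsp26 the 3 most alike of 9075 genes were Hsp27 (r = 0.994), Hsp22 (0.988) and Hsp68 (0.983), and 5 of the 10 genes were among its 50 most alike. For Hsp68 they were Hsp26, Hsp22 (0.980) and Hsp70Bc (0.975). For Hsp70Aa they were RhoGAP5A (0.985), Hsp23 (0.972) and CG11398 (0.967). For stv they were Tsp42Ea (0.994), CG8740 (0.993) and CG5541 (0.989), and none of the other 9 genes was among its 50 most alike. Hsp83 was most like CG32809 (0.986), Spt (0.976) and lok (0.970), and DnaJ-1 was most like CG17721 (0.994), gdl (0.947) and Sgt1 (0.937).

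Per kilobase of the longest transcript, the order of the genes changed between libraries. In control libraries 1 and 3 Hsp83 led with 138 and 169 CPM per kb, and DnaJ-1, stv and Hsp26 followed in that order, with 52.6, 19.4 and 7.23 CPM per kb in library 1. In Shn-RNAi library 2 Hsp26 led with 376 CPM per kb, ahead of Hsp70Aa (259), Hsp23 (139) and Hsp83 (126). In Shn-RNAi puc library 1 Hsp70Aa led with 82.7 CPM per kb. Over control libraries the levels of Hsp83 and DnaJ-1 did not overlap each other, while Hsp70Aa, Hsp68 and the small heat shock genes overlapped each other.

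Among the other chaperones, those made constitutively come first. Hsc70-4, the main constitutive cytosolic Hsp70, was at 1763, 1894 and 2084 CPM among controls, 2014 and 1561 CPM in Shn-RNAi, and 1501 and 1904 CPM in Shn-RNAi puc, with no difference past the threshold (edgeR adjusted p = 0.81, 0.65 and 0.98). The 8 subunits of the CCT chaperonin, the ring that folds actin and tubulin, had differences from -0.19 to -0.04 in Shn-RNAi and from -0.18 to 0.02 in Shn-RNAi puc on the log2 scale, with 0 of 8 called by edgeR (0 at an unadjusted p under 0.05). CCT8 (-0.19 and -0.18) and CCT3 (-0.17 and -0.16) had the smallest p. The 6 prefoldin subunits, which hand chains to that ring, had 0 called (0 unadjusted), with Pfdn5 at -0.22 and -0.42 and Pfdn6 at -0.30 and -0.39. Of 2 regulators tested, Hsf differed from control by -0.37 (SE 0.17, edgeR adjusted p = 0.21) and -0.15 (adjusted p = 0.59), and Sirt1 by 0.21 (adjusted p = 0.48) and 0.28 (adjusted p = 0.30).

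The list of other small heat shock genes had 3 tested of 7 in the table, and 1 of the 3 was lower and 0 higher in each comparison with control, where 3.56% and 6.25% of all tested genes were lower. The alpha-crystallin relative l(2)efl was at 339, 277 and 385 CPM among controls, 139 and 206 CPM in Shn-RNAi, and 116 and 83.2 CPM in Shn-RNAi puc. Its difference from control was -0.95 (SE 0.25, edgeR adjusted p = 0.055) in Shn-RNAi and -1.74 (SE 0.26, adjusted p = 0.0061) in Shn-RNAi puc, so it passed in the second. That call was kept in 6 of 7 refits (adjusted p = 0.093 without Shn-RNAi puc library 2). CG14207, another alpha-crystallin type gene, fell by 0.80 in Shn-RNAi (SE 0.16, edgeR adjusted p = 0.020) and stood at -0.53 (adjusted p = 0.060) in Shn-RNAi puc. The sum of the visceral muscle markers was lower in the same libraries, as given above for stv. Of these markers Mhc, bt and sls overlapped control in Shn-RNAi. The part of the muscle markers in the result was not tested.

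Mitochondrial chaperones were lower where they passed. CG11267, the Hsp10 co-chaperonin, fell from 97.3, 84.0 and 109 CPM in control to 45.6 and 58.7 CPM in Shn-RNAi (log2 -0.89, SE 0.18, edgeR adjusted p = 0.022) and to 46.3 and 45.2 CPM in Shn-RNAi puc (-1.08, SE 0.18, adjusted p = 0.0090). Hsp60A, the chaperonin it caps, stood at -0.33 (edgeR adjusted p = 0.24) in Shn-RNAi and fell by 0.67 in Shn-RNAi puc (SE 0.16, adjusted p = 0.032). In that list 1 of 6 genes was lower in Shn-RNAi and 2 of 6 in Shn-RNAi puc, beside 3.56% and 6.25% of all tested genes, with medians of -0.42 and -0.44 against 0.03 and 0.02. Leaving out 1 library kept CG11267 in 2 and 5 of 7 refits (highest adjusted p = 0.089 with control library 1 dropped and 0.11 with Shn-RNAi puc library 2 dropped) and Hsp60A in 2 of 7 (0.18 without Shn-RNAi puc library 1).

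Among the 8 other Hsp70 and Hsp110 genes 1 was lower in Shn-RNAi, beside 3.56% of all tested genes. Hsc70-2 fell by 1.19 in Shn-RNAi (SE 0.26, edgeR adjusted p = 0.028) from 7.81, 7.69 and 5.34 CPM to 2.75 and 3.38 CPM, and stood at -0.14 (adjusted p = 0.75) in Shn-RNAi puc. Hsp70Bbb, with 0, 22 and 0 counts in control and 7 and 453 in Shn-RNAi, did not pass (edgeR adjusted p = 0.086). Of 21 J-domain genes 1 was higher in each comparison with control, where 6.06% and 8.76% of all tested genes were. CG40178, listed as l(3)80Fg, rose by 0.86 in Shn-RNAi (SE 0.18, edgeR adjusted p = 0.024) and by 0.68 in Shn-RNAi puc (SE 0.18, adjusted p = 0.041). The endoplasmic reticulum members shv and P58IPK fell by 0.72 and 0.74 in Shn-RNAi puc (SE 0.17 and 0.18, edgeR adjusted p = 0.030 and 0.032), which is 2 of 21 beside 6.25% of all tested genes lower. Of 17 co-chaperones 1 was higher in Shn-RNAi, beside 6.06% of all tested genes. It was shu, a germline piRNA factor, which rose by 2.15 in Shn-RNAi (SE 0.55, edgeR adjusted p = 0.049) from 3 to 14 counts per library to 34 and 41, and Dpit47 stood at -0.38 (adjusted p = 0.29) and -0.49 (adjusted p = 0.17). Of these calls shu was kept in 0 of 7 refits that left out 1 library, Hsc70-2 in 1, CG40178 in 3 and 2, CG14207 in 3, shv in 3 and P58IPK in 2. Their highest adjusted p were 0.10 (Hsc70-2), 0.086 (CG14207) and 0.11 (CG40178) in Shn-RNAi when control library 1 was dropped, and 0.17 for shu without Shn-RNAi library 2. In Shn-RNAi puc they were 0.18 (shv), 0.18 (P58IPK) and 0.28 (CG40178) without its library 2. Between the RNAi groups edgeR called 0 genes of these lists, where 0.143% of tested genes were called. At an unadjusted p under 0.05 in edgeR there were 2 among the other Hsp70 genes, 1 among the other small heat shock genes and 1 among the J-domain genes. The share of all tested genes at that unadjusted threshold is not given here, so these counts cannot be judged against it.

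**Figure D5:**
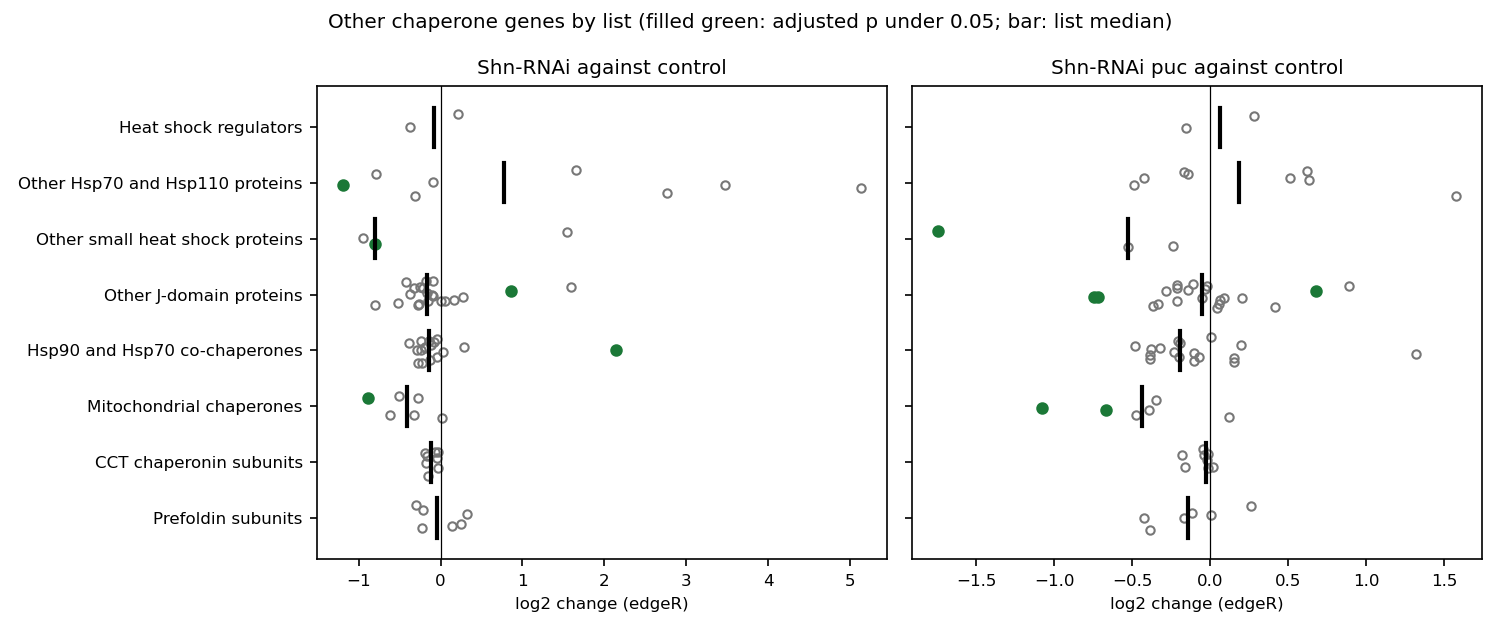
Points are edgeR log2 changes of the other chaperone genes by list in the 2 comparisons with control, filled green where the adjusted p was under 0.05, and bars are list medians. CCT subunits lie between -0.19 and 0.02, and the called genes include CG11267 and CG14207 below 0 in Shn-RNAi and l(2)efl at -1.74 in Shn-RNAi puc.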

How the data were processed

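The deposited file is a table of whole-number gene counts for 7 libraries. Salmon 1.0.0, DESeq2 and BDGP6 are named in the submitters' processing notes. Their roles, any rounding and strand handling are not given in the sources used here, so overlapping genes and near-identical copies are uncertain. Columns name a group and a number. In Shn-RNAi and Shn-RNAi puc that number does not match the number of a sample title, so libraries are numbered as the columns are.

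Of 10902 symbols, 10869 were found in the Ensembl annotation of BDGP6.54, 825 of them by an older name. The filterByExpr step of edgeR 4.0.16 (R 4.3.3) removed 1826 genes and kept 9076. TMM factors scaled the libraries, and 1 quasi-likelihood model with 4 residual degrees of freedom covered the 3 groups. Tests were two-sided, with Benjamini-Hochberg adjustment across all 9076 genes and a threshold of 0.05. Each SE was derived from the log2 change and its F statistic. The common biological coefficient of variation was 21.6%. The fit was also run on counts simulated at that value for every gene. The Hsp70 and small heat shock genes had higher fitted values, so that run is no check of the fit for them.

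The 10 genes and the chaperone lists were chosen with earlier results of these data known. From each list the text names every called gene and the 2 with the smallest p. Hsc70-4, Stip1, CG1416, HIP, CG10973, unc-45, p23, Hsp70Bb and the neighbours of the small heat shock genes were chosen after their values were seen. Alternatives used RLE or upper-quartile scaling, DESeq2 1.42.0, limma-voom (limma 3.58.1), other low-count filters, fewer groups, a length correction, summed Hsp70 copies, the column number as a block, removal of the 50 most abundant genes, and each library left out. Promoter motifs were not analysed here.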

Additional observations from a re-analysis of the deposited data

How the results depend on the processing

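Sample titles share no replicate number, but the column names end in numbers that recur between groups. Over all 9076 tested genes same-numbered libraries did not deviate together (r from -0.16 to 0.22), so the numbers were not taken to pair them. An r over all genes cannot show whether a few genes deviate together. Control library 2 and Shn-RNAi library 2 share a number, and both were high in Hsp70Aa, Hsp68 and the small heat shock genes. Whether the numbers mark a shared batch was not tested. With the column number as a replicate block, which leaves 2 residual degrees of freedom, 321 genes were called in Shn-RNAi, 468 in Shn-RNAi puc and 11 between the RNAi groups, and 0 of the 10 were called in any comparison. The change of stv was then 0.94 (edgeR adjusted p = 0.079) and 0.97 (0.060), and signs turned for Hsp83 in Shn-RNAi (0.027) and between the RNAi groups for Hsp70Aa (0.27) and Hsp23 (0.13). Of the calls named among the other chaperones, that of l(2)efl in Shn-RNAi puc was the only one kept under that block (edgeR adjusted p = 0.030). With the block the SE in Shn-RNAi was 0.66 for Hsp68 and 0.62 for Hsp23, against 1.13 and 1.09 without it. For stv it was 0.23, against 0.18. The block was added after seeing the data.

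Of 594 alternative values for the 30 changes of the 10 genes, 523 kept direction and side of the threshold, 10 lost a call, 13 gained one and 48 changed sign. The change of stv was called in 14 of 20 alternatives in Shn-RNAi and 16 of 20 in Shn-RNAi puc, and with the length trend removed it was 0.85 (edgeR adjusted p = 0.031) and 0.80 (0.028). Where no cause is given below, the cause was not tested.

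Genes called in Shn-RNAi against control numbered 873, and 285 to 835 with 1 library left out. In Shn-RNAi puc against control there were 1362, with 172 to 1872 when 1 library was left out and 2206 when only the 2 groups compared were fitted. Between the RNAi groups there were 13, with 4 to 13 when 1 library was left out, 84 by DESeq2 and 29 with the length trend removed. Of the 10 genes, 0 to 3 were higher in Shn-RNAi and 0 to 1 in Shn-RNAi puc with 1 control library left out. The 3 came without control library 2, beside 4.64% of tested genes higher, and 1 was then higher in Shn-RNAi puc, beside 6.14%. That library had been singled out by these same genes. The 3 included Hsp70Ab, with 0 counts in both remaining controls. Without Shn-RNAi puc library 2 the log2 change of Hsp83 in that group was -2.21.

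Without control library 2 and Shn-RNAi library 2, an alternative chosen after seeing these levels, the genes called were 1496, 2117 and 27, of which 5, 7 and 0 were among the 10 and higher. Signs then turned for Hsp83 in Shn-RNAi (0.17), for Hsp70Ab in Shn-RNAi puc (8.41, a fitted value with both controls at 0 counts), and between the RNAi groups for Hsp70Aa (1.43), Hsp68 (1.07), Hsp22 (1.65), Hsp23 (1.65), Hsp26 (1.24), Hsp27 (1.26) and DnaJ-1 (0.24).

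Changes close to 0 turned under scaling. Hsp68 in Shn-RNAi puc was -0.00063 with upper-quartile scaling and -0.025 with the length trend removed. Between the RNAi groups stv was -0.0065 with RLE factors, -0.0046 with upper-quartile scaling, -0.0057 by DESeq2, -0.0047 with only those groups fitted and -0.048 with the length trend removed.

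With 1 library left out, log2 changes in Shn-RNAi ran from 0.26 to 4.22 (Hsp70Aa), -0.085 to 13.16 (Hsp70Ab), -1.07 to 3.64 (Hsp68), -0.35 to 0.10 (Hsp83), -1.10 to 3.41 (Hsp22), -0.50 to 3.90 (Hsp23), -0.90 to 4.21 (Hsp26), -0.76 to 3.93 (Hsp27) and -0.58 to 0.20 (DnaJ-1). In Shn-RNAi puc they ran from 1.24 to 3.36 (Hsp70Aa), -12.51 to 8.39 (Hsp70Ab), -0.41 to 1.82 (Hsp68), -2.21 to 0.39 (Hsp83), 0.12 to 2.10 (Hsp22), 0.75 to 3.09 (Hsp23), -0.12 to 2.35 (Hsp26) and 0.07 to 2.51 (Hsp27). The values 13.16, -12.51 and 8.39 of Hsp70Ab come from fits with a group at 0 counts, depend on the prior count and are no measure of size. Between the RNAi groups they ran from -1.71 to 1.47 (Hsp70Aa), -2.72 to 1.11 (Hsp68), -2.10 to 0.50 (Hsp83), -2.23 to 1.68 (Hsp22), -1.68 to 1.68 (Hsp23), -2.78 to 1.27 (Hsp26), -2.31 to 1.30 (Hsp27), -0.20 to 0.26 (stv) and -0.53 to 0.27 (DnaJ-1).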
